A study of Rattus norvegicus with 4 samples.

Results

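The genes described here are 8 markers of olfactory ensheathing cells and Schwann cells, namely Sox10, Ngfr, S100b, Fabp7, Cdh19, Pmp22, Foxd3 and Gap43. These genes, and the marker lists used below, were chosen with earlier results of these data known. A probe was taken when the array's own gene name for it was one of these 8 symbols, after an ending such as "_predicted" was dropped. The array holds 41012 probes under 35658 gene names, and each of the 8 genes has 1 probe on it, printed at 35 spots in all. Each of 4 arrays carried a pair of samples from male Fischer rats. One was ensheathing cells grown from olfactory mucosa and labelled with Cy5, and the other was ensheathing cells grown from olfactory bulb and labelled with Cy3. Both cell types were kept under one culture protocol, and their RNA was amplified by global PCR before labelling. The labels number the arrays as biological replicates 1 to 4. How many animals gave each culture, and their age, was not given in the sources used here. Because mucosa was Cy5 on all 4 arrays, a difference between tissues and a difference between dyes cannot be told apart.

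Olfactory ensheathing cells enclose bundles of olfactory axons on their way from the nasal mucosa to the outer layer of the olfactory bulb. They arise from the neural crest, as Schwann cells do, and the transcription factor Sox10 is needed for both. In culture they are commonly recognised by the neurotrophin receptor p75 (Ngfr), the calcium-binding protein S100B and the fatty acid binding protein Fabp7, and such cultures can also hold fibroblasts, meningeal cells, astrocytes and macrophages.

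All 8 probes passed the filter on dim probes, were well above background in both channels on all 4 arrays, and none was saturated. A ratio is given as the log2 of mucosa over bulb, so that a value below 0 is lower in mucosa cells, and errors are SD over the 4 arrays. Of the 8 genes, 5 were lower in mucosa cells (limma, Benjamini-Hochberg adjusted p under 0.05 over all 36746 tested probes) and 0 were higher. Among all tested probes, 3.42% were lower, 3.13% were higher and 6.54% passed in either direction. The 5 genes were Fabp7, Cdh19, Sox10, S100b and Ngfr. The other 3 genes, Pmp22, Foxd3 and Gap43, did not pass the test. By sign alone, 5 of the 8 genes were below 0 on all 4 arrays, against 16.2% of all probes with 4 ratios, and 6 of the 8 had 1 sign throughout, against 33.4%. Because of how the genes were chosen, the shares over all probes are given for scale and are not a test of the 8 as a set. In these bulk cultures, fewer glia and less RNA per glial cell cannot be told apart. All but the call of Fabp7 were lost when particular arrays were left out, as given with each gene. With 1 array left out, the count of all probes called lower fell as well, from 1255 to between 288 and 620.

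**Figure D1:**
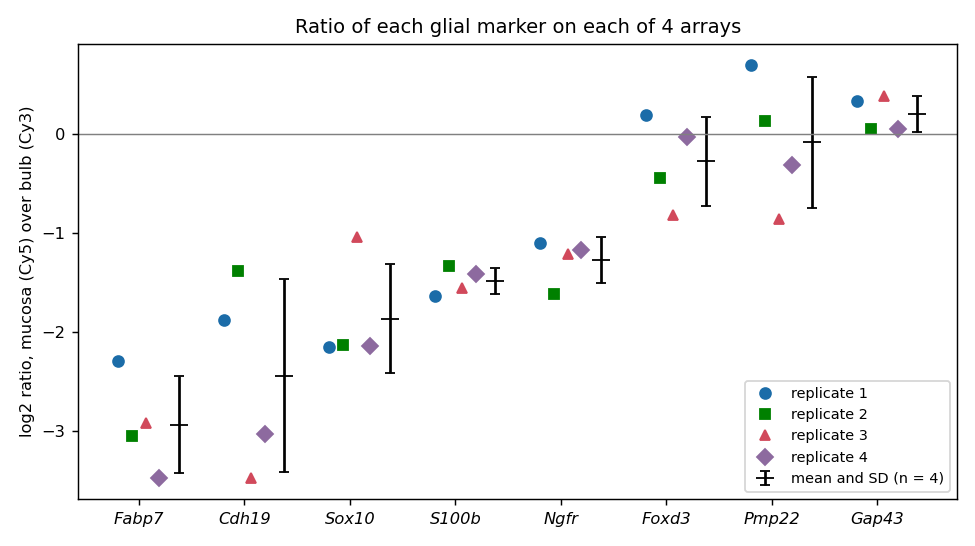
Log2 ratio of mucosa (Cy5) over bulb (Cy3) for the 8 glial markers on each of 4 arrays, ordered by mean, with the mean and SD beside each set of points. Fabp7, Cdh19, Sox10, S100b and Ngfr lie below 0 on all 4 arrays, Gap43 lies above 0 on all 4, and Foxd3 and Pmp22 fall on both sides of 0.

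Sox10 encodes a transcription factor of the SoxE group that sets and maintains glial identity in the neural crest lineage. Its probe lies at chr7:117138840-117138899 on the minus strand of rn4, the build named in the file headers. Its normalized signal on replicates 1 to 4 was 1953, 2457, 3537 and 1879 in mucosa cells, against 8671, 10794, 7281 and 8291 in bulb cells. The ranges of the tissues did not overlap, and replicate 3 was both the highest of the mucosa samples and the lowest of the bulb samples. Here and below, levels were not scaled between arrays, and how many of all probes had ranges without overlap was not counted. Log2 ratios of -2.15, -2.14, -1.04 and -2.14 resulted, with a mean of -1.87 ± 0.55 (n = 4, limma adjusted p = 0.0155). Replicates 1, 2 and 4 nearly coincided, and replicate 3 made up almost the whole range of 1.11. Without replicate 3 the mean was -2.14 and the call held. It was lost without replicate 1 (adjusted p = 0.0747), without replicate 2 (adjusted p = 0.0773) and without replicate 4 (adjusted p = 0.0590).

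Foxd3, a forkhead factor that acts in early neural crest cells and their glial descendants, did not pass the test. Its probe is shown with that of Cdh19, whose probe alone among the 8 spans more of the genome than its own length. The 60 bases of the Foxd3 probe come from chr5:120334911-120334970, plus strand, and those of the Cdh19 probe from chr13:18227642-18230162, minus strand, both in rn4. As the Cdh19 interval is 2521 bases long, its 60 bases cannot all be adjacent in the genome.
Foxd3 probe: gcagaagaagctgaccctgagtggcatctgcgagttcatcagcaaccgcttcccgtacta
Cdh19 probe: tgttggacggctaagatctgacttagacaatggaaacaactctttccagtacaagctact

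The signal of Foxd3 on replicates 1 to 4 was 1550, 1283, 827 and 1273 in mucosa cells, against 1348, 1737, 1457 and 1297 in bulb cells. The ranges overlapped, and mucosa was the higher of the pair on replicate 1 only. The log2 ratio averaged -0.27 ± 0.45 (n = 4, limma adjusted p = 0.543), with a 95% interval of -0.86 to 0.32. A change of up to 0.86 on the log2 scale toward lower levels in mucosa is therefore inside the interval.

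Ngfr encodes p75, the low-affinity neurotrophin receptor by which ensheathing cells are often purified. Its probe, at chr10:84263082-84263141 on the minus strand of rn4, is printed at 10 spots on each array. The signal was 6190, 5664, 4973 and 5476 in mucosa cells, against 13241, 17346, 11523 and 12358 in bulb cells. Every bulb sample was above every mucosa sample, and bulb replicate 2 was the highest. The log2 ratios were -1.10, -1.61, -1.21 and -1.17, and the mean was -1.27 ± 0.23 (n = 4, limma adjusted p = 0.0213). In fold terms Ngfr was 2.42-fold lower in mucosa cells. The call was lost when any 1 array was left out, with adjusted p between 0.0641 and 0.110, although the mean stayed between -1.33 and -1.16. It also moved just past the threshold under median centring in place of loess, at -0.99 (adjusted p = 0.0503).

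S100b encodes a calcium-binding protein of glia. Its probe, at chr20:12791899-12791958 on the minus strand of rn4, is also printed at 10 spots. The signal was 694, 862, 700 and 844 in mucosa cells, against 2151, 2178, 2064 and 2251 in bulb cells. The bulb samples lay within a narrow band, and all mucosa samples were below them. The log2 ratios were -1.63, -1.34, -1.56 and -1.41 (limma adjusted p = 0.0119). Their SD of 0.13 was the smallest of the 8 genes. The call was lost without replicate 1 (adjusted p = 0.0604) and without replicate 2 (adjusted p = 0.0652), with means of -1.44 and -1.54.

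Fabp7, also called brain lipid binding protein, carries fatty acids in radial glia and in ensheathing cells. Its probe lies at chr20:36815975-36816034 on the plus strand of rn4. The signal was 827, 621, 452 and 318 in mucosa cells, against 4066, 5152, 3419 and 3548 in bulb cells. No mucosa sample came near the bulb samples. Ratios of -2.30, -3.05, -2.92 and -3.48 on the log2 scale were measured (limma adjusted p = 0.00350), the lowest on replicate 4. Among the 8 genes Fabp7 alone kept its call under all 18 alternative settings, where its mean ran from -3.15 to -2.71 and its highest adjusted p was 0.0294. Only 0.256% of tested probes had a mean ratio as low or lower.

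Cdh19 encodes a type II cadherin, a cell adhesion protein found in Schwann cell precursors and in ensheathing cells. Its signal was 877, 784, 186 and 191 in mucosa cells, against 3229, 2039, 2070 and 1571 in bulb cells. The tissues did not overlap, but the mucosa samples fell into a high pair, replicates 1 and 2, and a low pair, replicates 3 and 4. The log2 ratios were -1.88, -1.38, -3.48 and -3.04, with a mean of -2.44 ± 0.98 (n = 4, limma adjusted p = 0.0200). The call was lost without replicate 1 (adjusted p = 0.0702) and without replicate 4 (adjusted p = 0.0727), with means of -2.63 and -2.25. The same pairs of arrays differed in other measures. Here and below, how many of all probes split the arrays into these pairs was not counted. The median Cy5 signal over all spots was 842 and 839 on replicates 1 and 2, and 567 and 598 on replicates 3 and 4. That of Cy3 was 358 and 342 on replicates 1 and 2, and 378 and 382 on replicates 3 and 4. The macrophage and microglia list, of which 0 of 7 tested genes passed the test, had a median log2 ratio of 0.59 and 0.39 on replicates 1 and 2 and of -1.28 and -1.40 on replicates 3 and 4. Its summed signal ran from 13304 to 20149 in mucosa cells and from 13034 to 21071 in bulb cells, and each tested gene of it was well above background on at least 3 arrays in each tissue. The part of either in the spread of Cdh19 was not tested.

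**Figure D2:**
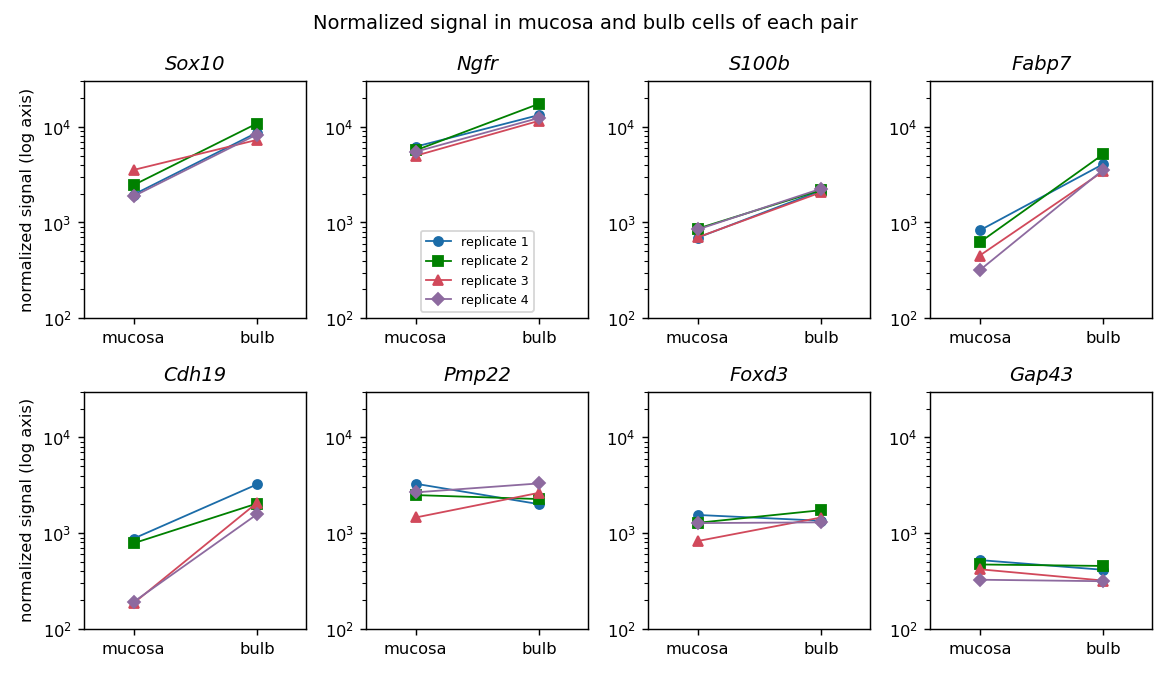
Normalized signal (log axis) of each glial marker in mucosa cells and in bulb cells, with a line joining the samples hybridised to one array. For Sox10, Ngfr, S100b, Fabp7 and Cdh19 every line goes up toward bulb, and for Cdh19 the mucosa values fall into a pair at 877 and 784 and a pair at 186 and 191.

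Pmp22 encodes a membrane protein of peripheral myelin that other cell types, fibroblasts among them, also make. Its probe lies at chr10:49335537-49335596 on the plus strand of rn4. The signal was 3281, 2499, 1458 and 2668 in mucosa cells, against 2009, 2271, 2639 and 3307 in bulb cells. Mucosa was the higher on replicates 1 and 2, and bulb on replicates 3 and 4, the same split of the arrays as for Cdh19. The ratios of Sox10, Ngfr, S100b, Fabp7, Foxd3 and Gap43 did not split the arrays in this way. Its log2 ratios, 0.71, 0.14, -0.86 and -0.31, had a mean of -0.080 ± 0.66 that did not pass the test (n = 4, limma adjusted p = 0.892). The 95% interval ran from -0.80 to 0.64, and the sign of the mean turned under 3 of 18 alternative settings.

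Gap43 encodes a growth-associated protein of axonal growth cones that cultured ensheathing cells and immature Schwann cells also make. Its probe lies at chr11:60083891-60083950 on the plus strand of rn4 and is printed at 10 spots. The signal was 523, 471, 420 and 326 in mucosa cells, against 414, 455, 320 and 315 in bulb cells. Mucosa was the higher on all 4 arrays, but by little on replicates 2 and 4, and the ranges overlapped. The log2 ratios were 0.34, 0.051, 0.39 and 0.052, with a mean of 0.21 ± 0.18 (n = 4, limma adjusted p = 0.569). The 95% interval was -0.28 to 0.69. A further probe that the array describes as GAP-43, but lists under another name, was well above background on 2 of 4 arrays in each channel and was not tested. Its ratios were 0.68, 0.75, -0.73 and -0.75.

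The genes differed in how closely the 4 arrays agreed. The SD of the log2 ratio was 0.13 for S100b, 0.18 for Gap43, 0.23 for Ngfr, 0.45 for Foxd3, 0.49 for Fabp7, 0.55 for Sox10, 0.66 for Pmp22 and 0.98 for Cdh19. Over all 36713 probes with 4 ratios the median SD was 0.53, with quartiles at 0.34 and 0.83. S100b was steadier than most probes, since only 2.88% of probes had a smaller SD, and only 1.60% of the 2000 probes nearest to it in signal. Gap43 stood at 6.14% of all probes and 3.5% of those of like signal, Ngfr at 11.4% and 22.9%, and Cdh19 at 82.8% and 78.55%. An SD from 4 values is itself loose: its 95% interval was 0.076 to 0.50 for S100b and 0.56 to 3.65 for Cdh19. These intervals did not meet, whereas that of Sox10, 0.31 to 2.05, met both. However, S100b and Cdh19 were compared because they had the smallest and the largest SD of the genes listed. Intervals made for single genes make no allowance for that choice, so they cannot decide whether the spreads of these genes differ. Differences in SD between the genes were not tested. The 3 genes with the smallest SD are also the 3 whose probes are printed at 10 spots, and the other 5 genes have 1 spot each. The part of spot number in the order of the SDs was not tested.

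**Figure D3:**
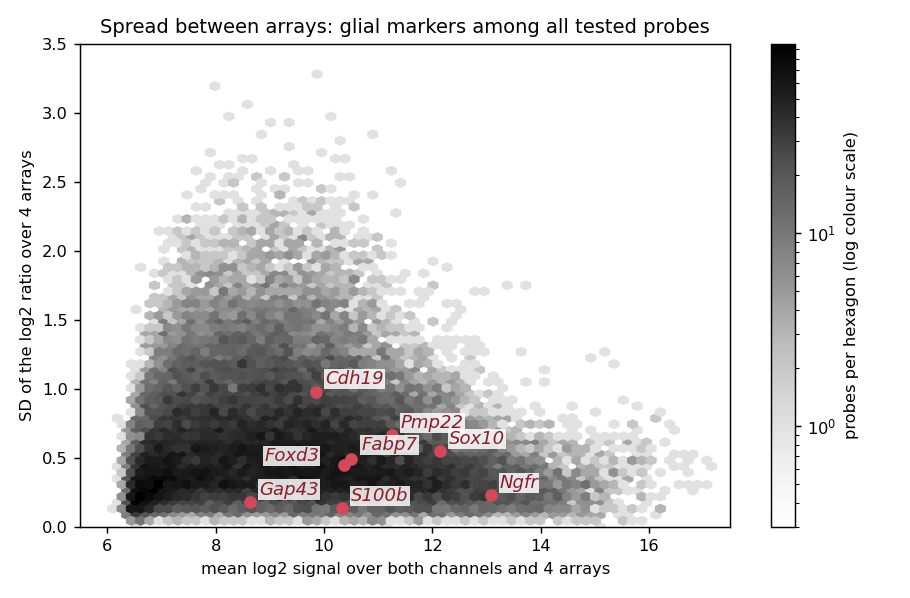
SD of the log2 ratio over 4 arrays against the mean log2 signal, for 36713 probes (grey hexagons, log colour scale) and the 8 glial markers (red). S100b and Gap43 lie near the lower edge, Ngfr lies somewhat above them, and Cdh19 is the highest of the 8.

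The spots printed 10 times gave the spread within an array. For Ngfr the SD between spots of one array had a median of 0.034 and ran from 0.026 to 0.044, so that the SD between arrays was 6.86 times the median. On replicate 2 the spots of Ngfr ran from -1.70 to -1.54, below every spot of the other 3 arrays. For S100b the median SD between spots was 0.053 and the SD between arrays 2.54 times as large, after 0, 1, 1 and 3 spots marked as outliers by the scanner software were left out on replicates 1 to 4. For Gap43 the median was 0.080 and the ratio 2.26. In all 3 genes the arrays thus differed by more than repeated spots did. The spots do not carry the spread of RNA amplification, which is shared by all spots of an array.

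**Figure D4:**
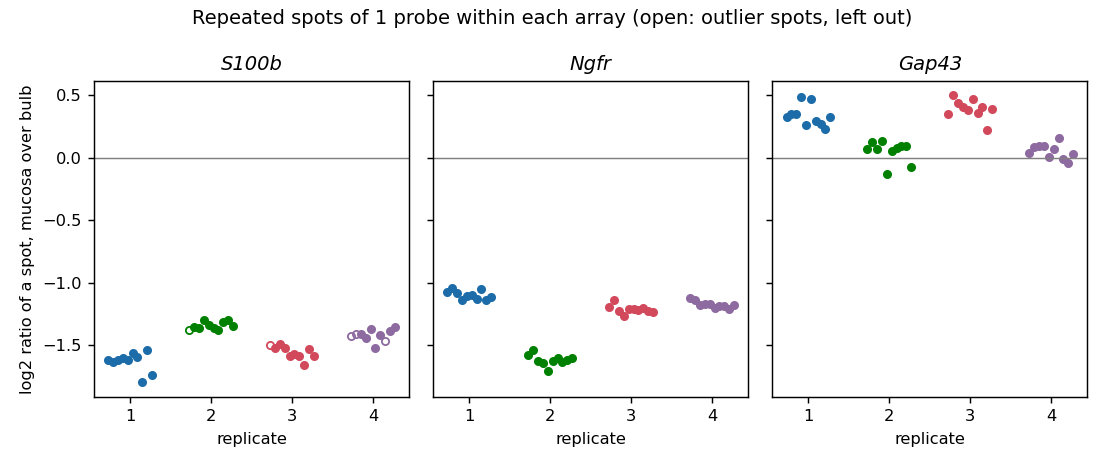
Log2 ratio of each of the 10 spots of S100b, Ngfr and Gap43 on replicates 1 to 4, with outlier spots open. Spots of one array cluster tightly, Ngfr on replicate 2 lies apart from the other arrays, and some Gap43 spots of replicates 2 and 4 fall below 0.

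For 7 of the 8 genes, all but Ngfr, the signal varied more between mucosa samples than between bulb samples. The SD of the log2 signal over the 4 samples was 0.59 in mucosa and 0.27 in bulb for Fabp7, and 1.24 in mucosa and 0.43 in bulb for Cdh19. Sox10 gave 0.42 in mucosa and 0.24 in bulb, Pmp22 gave 0.50 in mucosa and 0.31 in bulb, and Foxd3 gave 0.38 in mucosa and 0.19 in bulb. For Gap43 the SDs were close, at 0.29 in mucosa and 0.27 in bulb. S100b gave 0.17 in mucosa and 0.052 in bulb. Ngfr went the other way, with 0.13 in mucosa and 0.26 in bulb. The difference between these SDs was not tested, and how many of all probes varied more in mucosa was not counted. Over all spots, the median Cy5 signal ran from 567 to 842 over the 4 arrays, and that of Cy3 from 342 to 382. The part of this in the SDs was not tested.

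The mean ratios of the 5 genes that passed the test ran from -2.94 for Fabp7 to -1.27 for Ngfr, and differences between genes were not tested. The ratio of Fabp7 was below that of S100b on all 4 arrays, by 0.67 to 2.07, and below that of Ngfr on all 4, by 1.20 to 2.31. Fabp7 was also below Sox10 on all 4 arrays, by 0.15 to 1.88. Against Cdh19 it was lower on 3 of 4 arrays, the exception being replicate 3. S100b and Ngfr differed by 0.21 ± 0.35 on average, and their order changed between arrays. Over these 5 genes the median ratio was -1.88, -1.61, -1.56 and -2.14 on replicates 1 to 4. Over all 8 genes the median was -1.36, -1.36, -1.13 and -1.29, and the mean was -0.98, -1.22, -1.44 and -1.44. Replicate 3 combined the weakest Sox10 ratio with the strongest Cdh19 ratio.

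Gene symbols with ratios nearest to those of Sox10 and Fabp7 were found among 11244 symbols, by the root mean square difference over the 4 arrays. Nearest to Sox10 were Fkbp5 (a co-chaperone of steroid receptors) at 0.228, Cdh2 (N-cadherin) at 0.235 and Hand2 (a basic helix-loop-helix factor) at 0.237. Their ratios on replicate 3 were weaker as well, at -0.69 for Fkbp5, -0.95 for Cdh2 and -1.01 for Hand2. This follows from picking them by nearness to Sox10 and is no separate evidence about replicate 3. Nearest to Fabp7 were Tf (transferrin, an iron carrier) at 0.324, Lrrc23 at 0.406 and Dhrs9 (a short-chain dehydrogenase) at 0.442. Counted from Sox10, S100b was in place 93, Ngfr in place 156, Fabp7 in place 791 and Cdh19 in place 1097. Counted from Fabp7, Cdh19 was in place 59 and Sox10 in place 135. These are descriptions over 4 arrays that carry one set of samples.

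A list of 24 other ensheathing and Schwann cell genes was examined with 1 probe per gene name. Of the 24, 7 were lower in mucosa cells and 1 was higher by limma with adjustment over 31894 gene names, where 3.38% of all names were lower, 3.23% were higher and 6.62% passed in either direction. The median log2 ratio of the list was -0.40, against 0.011 over all gene names, and 18 of the 24 genes were below 0. As this list too was chosen with earlier results known, these shares are no test of it as a set. The summed signal of the list ran from 67217 to 78336 in mucosa cells and from 102600 to 140780 in bulb cells. The count of lower genes fell to 3 with the scanner software's own processed signals, and to between 1 and 3 when 1 array was left out.

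The largest difference in that list was in Ednrb, the endothelin receptor B of neural crest cells. Its log2 ratios were -3.22, -3.59, -3.14 and -2.80, a mean of -3.19 ± 0.32 (n = 4, limma adjusted p = 0.00197). Its probe was well above background on 3 of 4 arrays in mucosa and on 4 of 4 in bulb. Ednrb kept its call under every alternative setting in which it was tested, 18 in all, where its mean ran from -4.26 to -3.05. Mitf, a transcription factor of melanocytes and of some glia, had a mean of -1.75 ± 0.72 (adjusted p = 0.0280). Sox2, a factor of neural and glial progenitors that is listed on the array as RGD1565646 and was named through a synonym, had -1.39 ± 0.53 (adjusted p = 0.0337). Cadm4, an adhesion protein of Schwann cells listed as Igsf4c, had -1.34 ± 0.38 (adjusted p = 0.0255). These calls were less steady: of 19 settings Mitf kept its call in 13, Sox2 in 10 and Cadm4 in 11, and all 3 lost it with the processed signals.

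Myelin genes of the list were among those lower in mucosa cells. Mbp, myelin basic protein, had a mean of -1.49 ± 0.44, and a second probe for it gave -2.05 ± 1.29. Its call was lost when any 1 array was left out. Cnp, an enzyme of myelinating glia listed as Cnp1, had -1.42 ± 0.25 (adjusted p = 0.0162), and its call was lost without replicate 1, 2 or 3. Gldn, gliomedin, which Schwann cells place at nodes of Ranvier, was the gene that was higher, with ratios of 2.03, 1.85, 2.50 and 1.10 (adjusted p = 0.0164). Its call was lost without replicate 1, without replicate 2 and when the pairing was ignored.

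Several well-known glial genes of the list did not pass the test. Erbb3, the neuregulin receptor of Schwann cells, had -0.93 ± 0.23 (adjusted p = 0.0519), with all 4 arrays below 0. The adhesion molecules L1cam and Ncam1 had -0.20 ± 0.23 and -0.51 ± 0.74. Frzb, a secreted Wnt antagonist, had ratios of 1.08, 1.33, -1.80 and -2.15, opposite in sign on the same pairs of arrays that split Cdh19. Above 0 without passing the test were Tfap2a (listed as Tcfap2a) at 1.01 ± 1.07, Egr2 at 0.57 ± 0.82 and Gfra3 at 0.28 ± 0.28. Pou3f1 at 0.17 ± 0.52 and Npy at 0.041 ± 0.42 were also above 0. The genes of this paragraph were named after their values were seen.

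Marker lists of other cells differed between the tissues as well. Over all gene names, 3.23% were higher and 3.38% were lower by the same test. Of 12 fibroblast genes, 6 were higher and 2 were lower in mucosa cells, with a summed signal of 313080 to 365274 in mucosa and 122429 to 183662 in bulb. The largest were Fbln1 at -4.15 ± 0.62, Mfap5 at 3.99 ± 1.16 and Thy1 at 3.90 ± 0.71. Second probes gave 2.41 ± 0.62 for Mfap5 and -4.16 ± 0.64 for Fbln1. Fbln1 encodes fibulin-1, a matrix protein, and was the one of these that was lower. With 1 array left out, 4 to 5 of the 12 fibroblast genes were higher and 1 to 2 were lower. Of 6 smooth muscle and pericyte genes, 4 were higher and 0 were lower, and the summed signal was 94947 to 107067 in mucosa and 17742 to 28019 in bulb. With 1 array left out, 3 of the 6 were higher. Cnn1, Cspg4 and Tagln, which mark contractile cells and pericytes, had ratios of 2.70, 2.65 and 2.46. The other 2 genes of that list did not pass the test: Des, the muscle intermediate filament desmin, had 0.23 ± 0.30, and Rgs5, a pericyte marker, had ratios of -1.48, 0.33, -4.46 and -4.20 (adjusted p = 0.137). In both of these lists every tested gene was well above background on all 4 arrays in mucosa and in bulb. The part of such cells in the lower glial signals was not tested.

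In the lists for meningeal cells, astrocytes, neurons and oligodendrocytes, the genes that passed the test were lower in mucosa cells. Of all gene names, 3.38% were lower. Of 6 meningeal genes, 3 were lower and 0 were higher in mucosa cells, with Zic1 at -4.33 ± 0.15, Tbx18 at -2.77 ± 0.53 and Slc6a13 at -1.73 ± 0.66, of which Slc6a13 lost its call with the processed signals and without replicate 1, 2 or 4. Their summed signal was 6885 to 10179 in mucosa and 13227 to 19790 in bulb. Of 8 astrocyte genes, 2 were lower, Slc1a3 at -1.85 ± 0.83 and Gfap at -1.44 ± 0.26, and the summed signal was 3360 to 6546 in mucosa and 5592 to 7372 in bulb. Both astrocyte calls were lost when any 1 array was left out, that of Slc1a3 also with the processed signals, and a second probe for Slc1a3 gave -0.81 ± 0.26. The astrocyte list had 4 of 8 genes below 0. Ensheathing cells can make Gfap as well. Of 9 neuronal genes, 2 neurofilament genes were lower, Nefm (listed as Nef3) at -3.06 ± 0.69 and Nefl at -2.78 ± 0.24, with a summed signal of 2217 to 5376 in mucosa and 4676 to 7219 in bulb. Of 9 oligodendrocyte lineage genes, 1 was lower. It was Cldn11, a tight junction protein, whose ratios of -1.79, -1.24, -4.31 and -3.32 split the arrays as Cdh19 did. Its call was lost when any 1 array was left out, with the processed signals and with no filter. The median of that list was 0.014, with 4 of 9 genes below 0. The part of these cells in the glial differences was not tested either.

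The remaining lists held few changes, and 3.23% of all gene names were higher and 3.38% lower. Of 7 epithelial genes, Krt8 (listed as Krt2-8) was higher at 2.64 ± 0.28 and Cdh1 was lower at -2.40 ± 0.37. Of 5 endothelial genes, Tek was higher at 1.51 ± 0.79 and Cdh5 was lower at -1.57 ± 0.67. Both endothelial calls were lost with the processed signals and when any 1 array was left out, Tek keeping its call in 8 of 19 settings and Cdh5 in 12 of 19. A second probe for Cdh5 gave -0.82 ± 0.63. Of the macrophage and microglia genes, Cd14 had the largest mean, 1.21 ± 2.26, and did not pass the test (adjusted p = 0.403), and a second probe for it gave 0.47 ± 1.70.

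**Figure D5:**
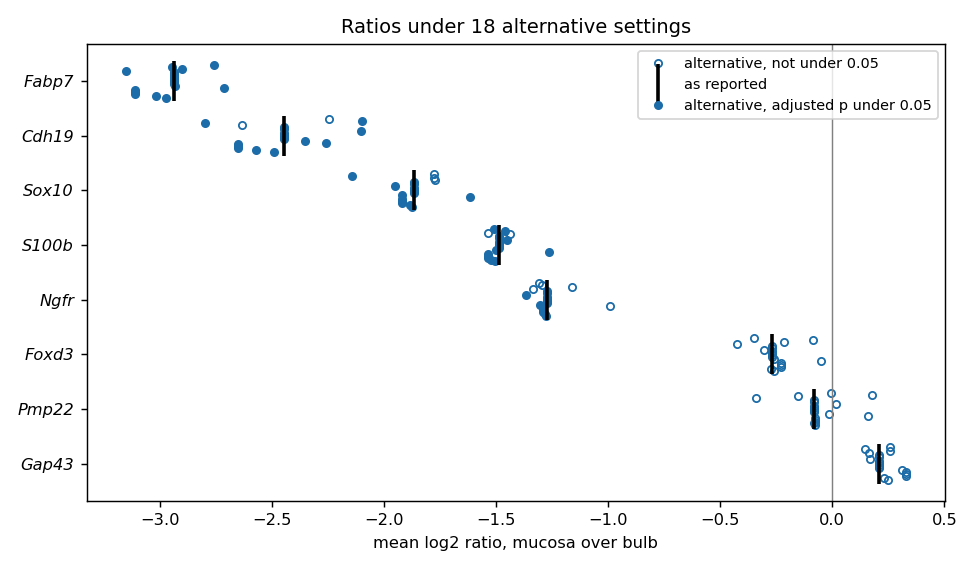
Mean log2 ratio, mucosa over bulb, of each glial marker as reported (black bar) and under 18 alternative settings, filled where the limma adjusted p is under 0.05 and open where it is not. All points of Fabp7 are filled, and those of Pmp22 lie on both sides of 0.

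Promoters of 5 of the 8 genes could be read from RefSeq (GRCr8), those of Foxd3, Pmp22, Cdh19, S100b and Fabp7. The stretch of 250 bases before the start of each gene was searched on both strands for ACAAAG and ACAATG, core motifs of Sox factors, and for CCAAT, a common promoter element. The Sox motifs were found in 0 of the 5, against 25.3% of all 33469 promoters of that length. CCAAT was found in 4 of the 5, all but Foxd3, against 34.0% of all promoters. A match is only a match of letters. The promoters of S100b, Fabp7 and Cdh19 are printed because these genes were lower together in mucosa cells, 5′ to 3′ along the gene, with CCAAT or its reverse complement in capitals. They lie at chr20:12381082-12381331 (minus strand), chr20:37669356-37669605 (plus strand) and chr13:28533754-28534003 (minus strand) of GRCr8.
S100b promoter: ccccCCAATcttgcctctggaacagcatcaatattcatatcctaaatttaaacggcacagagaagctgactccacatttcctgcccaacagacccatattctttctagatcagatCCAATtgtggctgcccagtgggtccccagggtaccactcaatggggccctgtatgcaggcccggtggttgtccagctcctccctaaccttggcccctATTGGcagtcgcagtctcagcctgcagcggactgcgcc
Fabp7 promoter: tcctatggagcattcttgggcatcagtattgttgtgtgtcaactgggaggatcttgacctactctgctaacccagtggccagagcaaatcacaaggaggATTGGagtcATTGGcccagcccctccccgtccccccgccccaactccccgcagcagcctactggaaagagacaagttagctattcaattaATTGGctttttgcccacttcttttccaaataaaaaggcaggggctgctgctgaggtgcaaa
Cdh19 promoter: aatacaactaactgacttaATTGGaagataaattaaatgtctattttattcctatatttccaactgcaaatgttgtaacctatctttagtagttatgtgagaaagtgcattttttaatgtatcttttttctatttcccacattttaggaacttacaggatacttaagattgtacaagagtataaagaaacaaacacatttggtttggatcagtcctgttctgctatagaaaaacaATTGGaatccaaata
The S100b promoter holds 3 matches, at 246, 135 and 38 bases before the start, and that of Fabp7 also holds 3, at 151, 142 and 61 bases. In Cdh19 the 2 matches begin 231 and 15 bases before the start.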

How the data were processed

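The deposited scanner files of 4 two-colour arrays were used, each with mucosa cells in Cy5 and bulb cells in Cy3. They hold mean and background intensity per spot, written by Feature Extraction 10.5.1.1 per the file headers (the submitters' processing notes name version 9.1), on the rn4 build. The authors' deposited LogRatio column is on the log10 scale, and the deposited value table is identical to it (largest difference 0), so both served as alternatives after turning to log2. The flags for background, saturation and outliers are those of the deposited files. The value table has 0 columns without a sample.

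From the intensities, background was corrected by normexp with an offset of 50, arrays were normalized by loess with control and outlier spots at weight 0, and spots of 1 probe were averaged (R 4.3.3, limma 3.58.1). Levels are linear normalized signals with the offset included, and they were not scaled between arrays. To be tested, a probe needed a share of 0.5 or more of its spots well above background, in either channel, on 3 or more arrays, which left out 4266 probes. The ratio of an array, which is the pair, was tested against 0 with lmFit and eBayes, Benjamini-Hochberg adjusted. SD intervals use the chi-square distribution with 3 degrees of freedom. The limma step alone was run on simulated ratios with known changes, drawn independently for each probe. This did not cover background correction or normalization. The number of arrays limits the precision, and 82.8% to 91.1% of spots, controls left out, were well above background per array and channel.

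Members and lists were chosen with earlier results of these data known. For a list, the text names the called genes of largest absolute mean ratio with 1 sign on all arrays (up to 8 for ensheathing and Schwann glia, up to 3 otherwise), or the largest where none was called, each by the brightest probe of its name. Older array names were matched through RefSeq accessions or a synonym. For Acta2, Myh11, Foxc1, Foxd1 and Ptprc no match was made, and Pecam1 did not pass the filter. Single results of some genes in the lists are not reported here, though the counts include them. Alternatives covered background, normalization, filters, outlier and saturated spots, array weights, variance, pairing, single arrays left out and, for gene names, the mean over probes.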

Additional observations from a re-analysis of the deposited data

Results flagged for a closer look

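Of 51 values examined for an array far from the other 3, 2 had a gap to the nearest array that exceeded Dixon's 95% critical value for 4 samples, as a share of the whole range. Chance gives such a gap in about 1 in 20 groups. For Sox10 the share was 0.986, since replicate 3 (-1.04) stood apart from -2.15, -2.14 and -2.14. For Thy1, a surface protein of fibroblasts and neurons, it was 0.889, since replicate 4 (2.83) stood apart from 4.14, 4.30 and 4.31 on the log2 scale of mucosa over bulb.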

How the results depend on the processing

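Of the 8 genes, 5 were lower in mucosa cells in every setting that kept all 4 arrays, other than median centring, where Ngfr was lost and 4 remained. With the processed signals, the deposited LogRatio and the value table, Ngfr was only just under the threshold (limma adjusted p = 0.0498 in each). With 1 array left out, between 1 and 4 were lower, and the single gene without replicate 1 was Fabp7. The mean ratio of Pmp22 turned above 0 under median centring (0.159), with array weights (0.018) and without replicate 3 (0.179), the cause was not tested, and none of these passed the test. Leaving out 1 array moved it between -0.34 and 0.18. The processed signals, the deposited LogRatio and the value table each gave 802 probes and 696 gene names lower. When the pairing was ignored (no replicate block), 1944 probes were higher and 2041 lower, and 1739 gene names were higher and 1743 lower, with 5 of the 8 genes still lower. Median centring shifted the split to 1625 probes higher and 1152 lower, against 1150 and 1255 with loess. Leaving out 1 array gave 315 to 610 probes higher and 288 to 620 lower, and 282 to 540 gene names higher and 263 to 525 lower, with fewer arrays in each fit. No tested probe was saturated, so leaving out saturated probes changed nothing.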
